A study of Rattus norvegicus with 84 samples.

Results

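Nuclear genes for oxidative phosphorylation (OXPHOS), the respiratory chain and the ATP synthase of mitochondria, were followed in the mRNA of extracellular vesicles (EVs) from the brain and the plasma of rats. The genes were chosen by symbol from the 18782 annotated genes of the count table, by a rule that uses no values. A gene was taken when its symbol began with Ndufa, Ndufb, Ndufc, Ndufs, Ndufv, Uqcr or Atp5, when it was Sdha, Sdhb, Sdhc or Sdhd, or when it began with Cox, a digit from 4 to 8 and a letter from a to c. The 7 symbols with Ndufaf, which are assembly factors, were left out. This gave 81 genes, of which 36 carry names of complex I, 4 of complex II, 8 of complex III, 15 of complex IV (with Ndufa4 and Ndufa4l2) and 15 of the ATP synthase. The other 3 were Cox7a2l, which takes part in building supercomplexes, Atp5s (coupling factor B) and Atp5sl, a factor in complex I assembly. The names do not cover the machinery fully. Cox4i1, Cox4i2, Cyc1 and the ATP synthase inhibitory factor Atpif1 fall outside the rule, Cox6b1 and Ndufa13 were not analysed here, and none of the 13 subunits encoded by mitochondrial DNA had a row under its symbol.

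EVs are membrane particles released by cells that carry RNA out of them. They were isolated from 21 male wild-type Sprague-Dawley rats aged 8 to 12 weeks, in 7 groups of 3. Of these, 18 underwent transient middle cerebral artery occlusion for 90 min and received, 3 days later, human neural stem cells (hNSCs) or saline through the carotid artery. The control group received saline alone. The main methods of the study give the hNSCs as a suspension and its supplement names a glucose buffer, so the carrier may have differed between the groups. Tissue was taken at 4, 10, and 31 days poststroke, so that the 4 days groups stood 1 day after the injection. The healthy group had neither surgery nor injection, so healthy and control rats differed in both. Brain EVs came from the ipsilateral hemisphere, and the extraction text of the labels speaks of serum where the other labels speak of plasma. The hNSCs were human cells, and reads were aligned to the rat genome. Whether human transcripts added counts was not tested.

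The 5 complexes sit in the inner mitochondrial membrane. Complex I takes electrons from NADH and complex II from succinate, complex III passes them to cytochrome c, complex IV hands them to oxygen, and the ATP synthase uses the proton gradient that results to make ATP. Neurons depend on this machinery for firing and ion transport, and an interrupted blood supply stops it for lack of oxygen. Most subunits are encoded in the nucleus, translated in the cytosol and imported, many of them by short mRNAs.

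Each brain library held 13221461 to 37651652 counts, but only 3.18% to 51.9% of them lay on annotated genes, or 569136 to 15587216 counts. In plasma, 45.1% to 75.6% did, or 6357675 to 31028559 counts. The 2 shallowest brain libraries by this measure both belonged to the hNSCs group at 10 days. In bulk EV RNA, fewer vesicles from a cell type and less RNA per vesicle cannot be told apart, nor can fewer cells of a type and less RNA per cell. The labelled sources were checked with marker genes. All 7 neuron markers were called higher in brain EVs, and their summed level was at most 11.8 TPM (a length-corrected share of transcripts, defined with the levels) in any plasma library against 945 to 6413 TPM in brain. Plasma EVs carried hemoglobin at 0.985% to 28.8% of annotated counts, and brain EVs at no more than 0.147%.

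By median TPM, the summed level of the 81 genes was similar in the 2 sources when hemoglobin genes were counted. Here TPM is the deposited FPKM value, which is already corrected for transcript length, rescaled to a sum of 1000000 over annotated genes. The sum ran from 4573 to 16620 TPM in the 21 brain libraries, with a median of 9786, and from 6486 to 13929 TPM in the 21 plasma libraries, with a median of 9995. With hemoglobin genes left out of the TPM, the median sum was 9801 in brain and 13351 in plasma. As a share of annotated counts, which is not corrected for length, the genes took 0.133% to 0.534% in brain and 0.418% to 0.811% in plasma. The medians of this share were 0.290% and 0.568%. The 2 ranges overlapped on each of these scales.

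**Figure D1:**
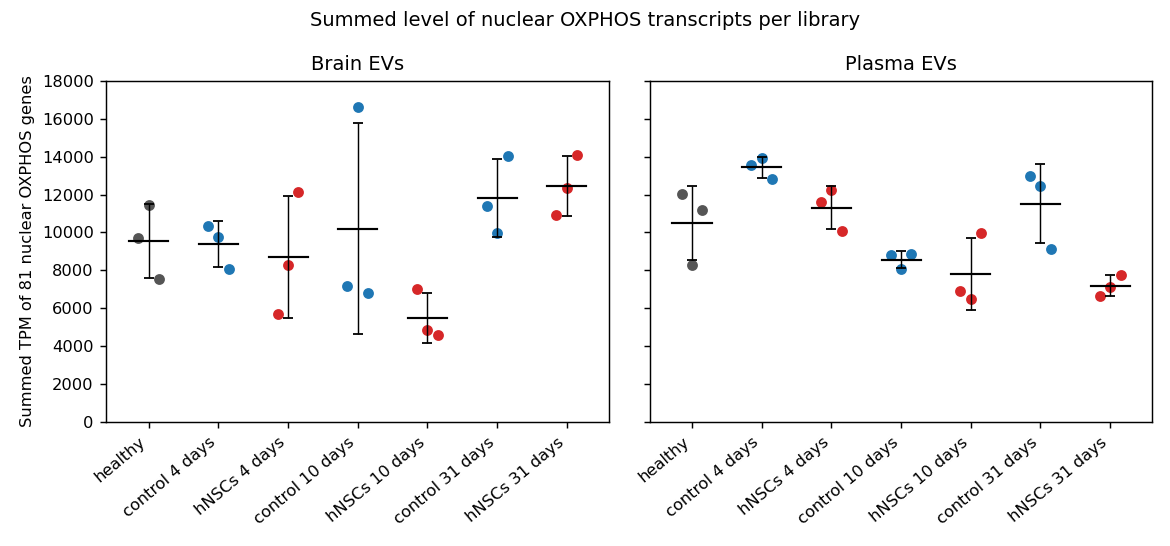
Summed level of the 81 nuclear OXPHOS genes in TPM (vertical axis) in each of the 21 brain and 21 plasma EV libraries, by group. Points are libraries, the horizontal line is the mean of 3 and the bar is 1 SD. Brain libraries of the hNSCs group at 10 days lie between 4573 and 7007 TPM, and control libraries at 10 days span 6781 to 16620 TPM.

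In brain EVs, per length, Atp5b, the catalytic beta subunit of the ATP synthase, stood at 467 TPM ± 137 (SD, n = 21 libraries over the 7 groups). Cox5b, a structural subunit of complex IV, stood at 464 ± 173 TPM, and Ndufb7, an accessory subunit of complex I, at 382 ± 190 TPM. Atp5a1, the alpha subunit of the ATP synthase, followed at 380 ± 160 TPM and Uqcr11, a small subunit of complex III, at 336 ± 176 TPM. Neighbours in this order differed by less than their SD. Sdha, the flavoprotein of complex II, reached 245 ± 83.0 TPM and Ndufs1, the largest core subunit of complex I, 78.5 ± 39.4 TPM.

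In plasma EVs, Cox6c, a subunit of complex IV, was the highest at 503 TPM ± 180 (SD, n = 21), ahead of Atp5e, the epsilon subunit of the ATP synthase, at 438 ± 161 TPM. Atp5h, part of its peripheral stalk, stood at 428 ± 144 TPM. Uqcrh, the hinge protein of complex III, stood at 422 ± 114 TPM and Ndufb4, an accessory subunit of complex I, at 365 ± 141 TPM. These neighbours, too, differed by less than their SD. Atp5b ranked 8 at 287 ± 57.6 TPM, Sdha stood at 74.7 ± 36.1 TPM and Ndufs1 at 18.1 ± 8.03 TPM. Across the 81 genes, the mean levels in brain and plasma had a Spearman rho of 0.79, a description over genes that share libraries and are not independent.

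**Figure D2:**
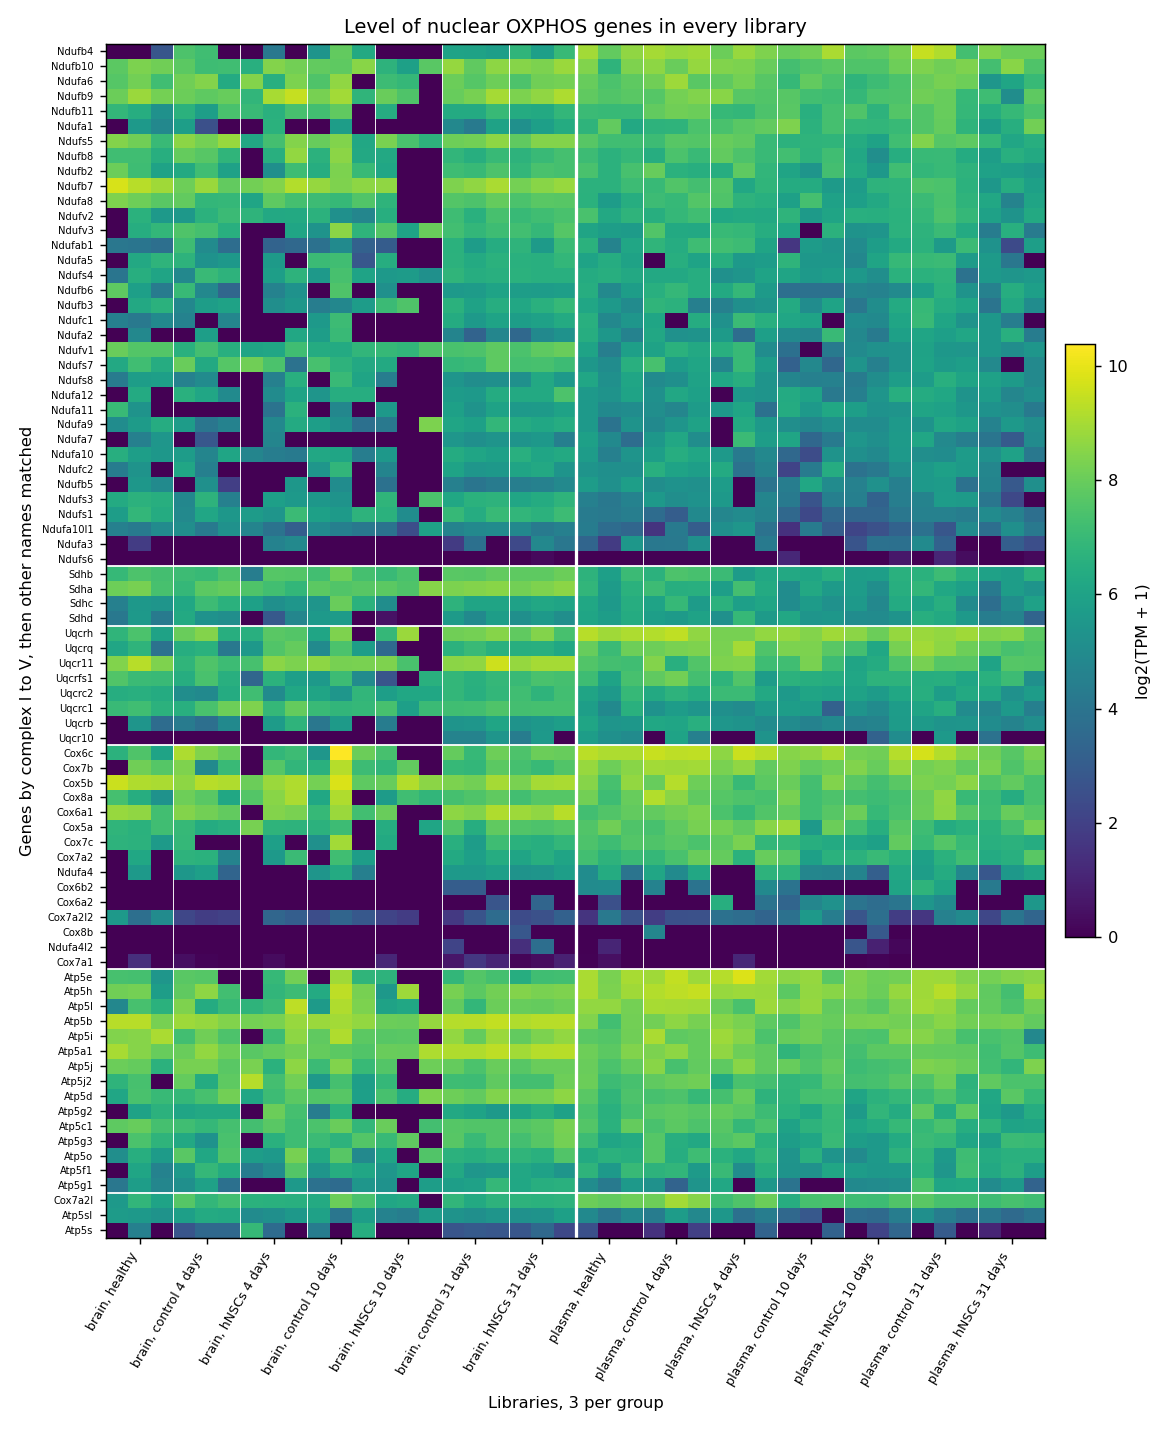
Level of 80 of the 81 genes as log2(TPM + 1) (color) in all 42 libraries, 3 columns per group, brain on the left and plasma on the right. Genes are ordered by complex and then by their mean level in plasma, and the darkest cells are values of 0, which are most numerous in hNSCs replicates 3 and 2 of brain at 10 days (58 and 50 of the 81 genes) and hNSCs replicate 1 at 4 days (43 of 81).

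Many values were 0. Of the 1701 values of the 81 genes in brain, 359 were 0 (21.1%), against 32.8% over all annotated genes. In plasma 141 of 1701 were 0 (8.29%), against 39.2% over all annotated genes. In brain, 59 genes had at least 1 library at 0 and another with over 99 counts among the 21. Within 1 group, this was so for 38 of 567 pairs of gene and group in brain (6.70%, against 3.02% over all annotated genes) and for 42 of 567 in plasma (7.41%, against 18.9%). Between 23 and 79 of the genes had a count in a brain library and between 69 and 79 in a plasma library. The brain libraries with the fewest detected genes were the hNSCs replicates 3 and 2 at 10 days, with 23 and 31 genes at 569136 and 1123445 annotated counts, and hNSCs replicate 1 at 4 days, with 38 at 1847441. All 6 brain libraries from 31 days held 6379318 or more annotated counts and 75 to 79 of the genes. The number of genes detected in brain therefore moved with the annotated depth, and its part in the comparisons that follow was not tested. Without molecular identifiers in these libraries, the floor of 3 counts covers counting error only, while SDs and SEs are of the spread between libraries.

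**Figure D3:**
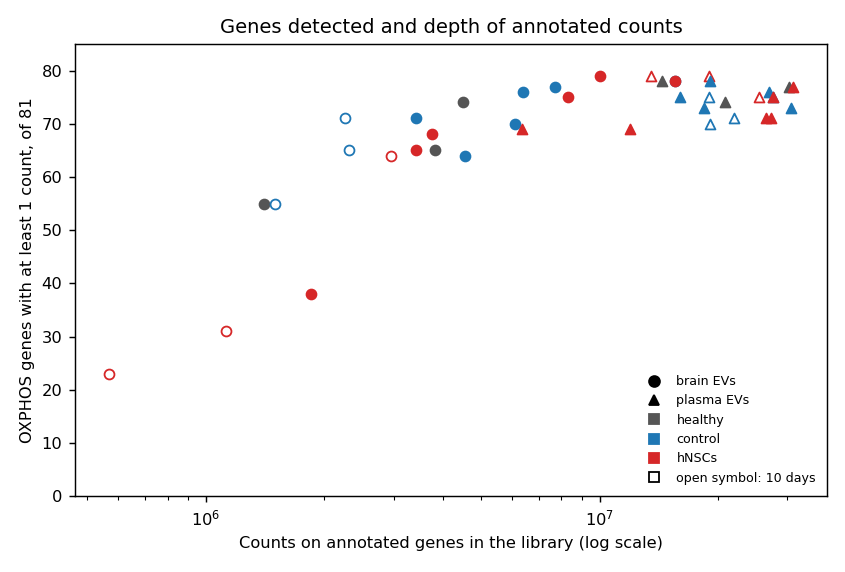
Number of the 81 genes with at least 1 count (vertical axis) against counts on annotated genes per library (log scale), for brain (circles) and plasma EVs (triangles), colored by group with the 10 days groups open. The 2 brain libraries with the fewest annotated counts hold 23 and 31 of the genes, and every plasma library holds at least 69.

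The spread between libraries differed by source. The biological coefficient of variation fitted by edgeR had a median of 0.906 over the OXPHOS genes tested in brain, where it was 0.846 over all genes. In plasma it was 0.493 over the OXPHOS genes and 1.41 over all genes.

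The first comparison set brain EVs against plasma EVs over the 7 groups, in 1 edgeR quasi-likelihood fit of 42 libraries. A gene was called when its Benjamini-Hochberg adjusted p over all genes was under 0.05 and the change exceeded 1.5-fold. Of 79 OXPHOS genes tested, 63 (79.7%) were lower in brain EVs and none was higher, while 25.3% of the 16945 genes tested were called lower, 29% higher and 54.3% either way. The median log2 difference, brain minus plasma, was -1.78 over the OXPHOS genes and 0.16 over all genes. The 63 calls hold on the scale of TMM-normalized counts. On log2(TPM + 1) with limma, an alternative chosen after the data were seen, 31 genes were called lower and 14 higher. These calls were 57% of the OXPHOS genes tested, and 72% of all genes were called either way. The medians on this scale were -0.65 over the OXPHOS genes and 1.08 over all genes. The placement of the OXPHOS genes below the median gene was seen on both scales, whereas the direction of single subunits depended on the scale for 15 of the 63, most of which are named with the processing alternatives. For 5 genes (Cox6a2, Uqcr10, Ndufa3, Ndufa4l2 and Cox7a1) the fit gave no usable error, and Cox8b and Ndufs6 were not tested.

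Of the 63 genes, 12 had at least 1 of the 7 brain groups at 0 in all 3 libraries, so that their fitted size depends on how the fit treats zeros. With such groups set to the floor of 3 counts over the group, the log2 difference was -5.49 or further below 0 for Ndufb4, and the same bound was -4.42 for Ndufa1, -3.63 for Ndufa7, -3.45 for Cox7a2, -3.37 for Ndufa4, -3.19 for Atp5g2 and -2.83 for Ndufa11. The other 5 were Cox6b2, Ndufa2, Ndufa12, Ndufc1 and Ndufc2, and the median over the 79 genes stayed at -1.78.

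Within complex I, Ndufb4 had the largest fitted difference. Ndufb4 was lower in brain EVs by -6.28 ± 0.52 (log2 difference ± SE), Ndufa1 by -5.20 ± 0.70, Ndufa7 by -5.19 ± 0.87 and Ndufa11 by -3.41 ± 0.66. Ndufb11 differed by -2.60 ± 0.38, Ndufv2, a core subunit of the electron input module, by -2.04 ± 0.38, and Ndufb10 by -1.85 ± 0.18. The largest adjusted p of these 7 was 3.79e-05 (edgeR). In counts, Ndufb4 was at 0 in 8 of 21 brain libraries and in no plasma library, and its mean level was 55.7 TPM in brain against 365 TPM in plasma. Of the 7 core subunits encoded in the nucleus, which hold the redox centers and the substrate sites, 3 were called lower and the median was -0.30, against -1.79 for the other 28 tested genes of the complex, 25 of them called. This split was made after the values were seen. Ndufs1, which carries iron-sulfur clusters, had a difference of 0.39 ± 0.30 (adjusted p = 0.314), and Ndufv1, which binds NADH, one of -0.00 ± 0.31.

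In complex II, 3 of 4 genes were called lower. The anchor subunit Sdhd was lower in brain EVs by -3.17 ± 0.41 and its partner Sdhc by -1.73 ± 0.33. Sdhb, the iron-sulfur subunit, was lower by -0.88 ± 0.29 (adjusted p = 0.00981). Sdha had a difference of -0.02 ± 0.15 on this scale, and its mean TPM was higher in brain.

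In complex III, 6 of 8 genes were called lower. Uqcrq, a small subunit next to cytochrome b, had the smallest adjusted p of all 79, 3.61e-12, at -3.29 ± 0.28. Uqcrh differed by -2.84 ± 0.36, Uqcrfs1, the Rieske iron-sulfur protein, by -2.09 ± 0.31 and the core protein Uqcrc2 by -1.66 ± 0.17. The other core protein, Uqcrc1, had a difference of 0.02 ± 0.21.

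Complex IV had the lowest median of the 5 complexes, -2.65 over 14 tested genes, 11 of them called lower. Ndufa4, now counted as a complex IV subunit, differed by -4.72 ± 0.84, Cox7a2 by -4.24 ± 0.61 and Cox6c by -3.08 ± 0.41. Cox7b differed by -2.75 ± 0.42, Cox5a by -2.55 ± 0.36 and Cox8a by -1.99 ± 0.34. Cox5b, by contrast, differed by only -0.92 ± 0.21.

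In the ATP synthase, 14 of 15 genes were called lower, with a median of -1.56. The lowest were Atp5g2, 1 of 3 genes for the membrane ring, at -3.99 ± 0.54 and Atp5e at -3.48 ± 0.50. Atp5l differed by -2.70 ± 0.32, Atp5h by -2.66 ± 0.37, Atp5j2 by -2.15 ± 0.39, Atp5f1 by -2.13 ± 0.37 and Atp5j by -1.77 ± 0.28. Atp5d differed by -1.14 ± 0.20, Atp5a1 by -1.13 ± 0.12 and Atp5b by -1.11 ± 0.13. Cox7a2l, the supercomplex factor, differed by -2.67 ± 0.25.

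**Figure D4:**
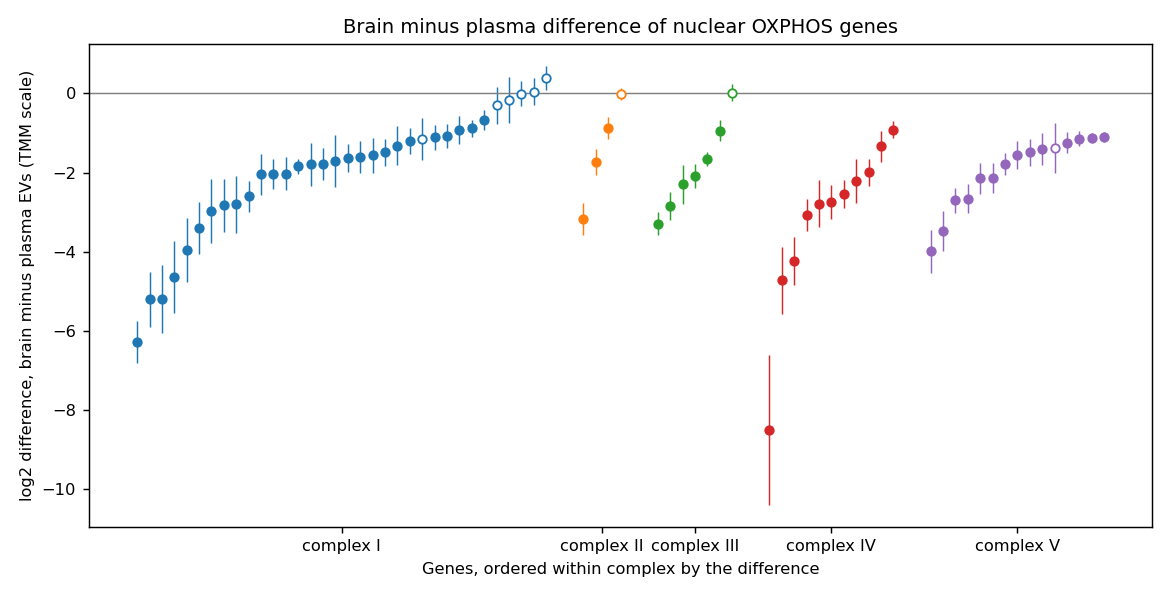
Difference between brain and plasma EVs on the log2 scale of TMM-normalized counts (vertical axis), with its SE, for 71 genes of complexes I to V ordered by size within each complex. Filled points were called lower in brain EVs and open points were not called, and the ATP synthase is the only complex in which no gene lies above -1.11.

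Transcript length moved with this difference. Length relative to the median gene was taken from the ratio of counts to FPKM, and 68 of the 78 OXPHOS genes with such a value fell in the shortest of 5 equal classes of all genes. The median log2 difference over all 3195 genes of that class was -1.85, and 49.2% of them were called lower, against 58 of the 68 OXPHOS genes with a median of -2.04. In the next class the medians were -0.69 over all genes and -0.67 over 9 OXPHOS genes. In the longest class, which held no OXPHOS gene, the median of all genes was 1.30. Spearman's rho between length and difference was 0.57 over 78 OXPHOS genes and 0.40 over 15974 genes, given as a description, since genes share libraries. The part of length in the difference was not tested beyond these values. The cytosolic ribosomal proteins, also short, had a median of -4.56 with 80 of 82 called lower.

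**Figure D5:**
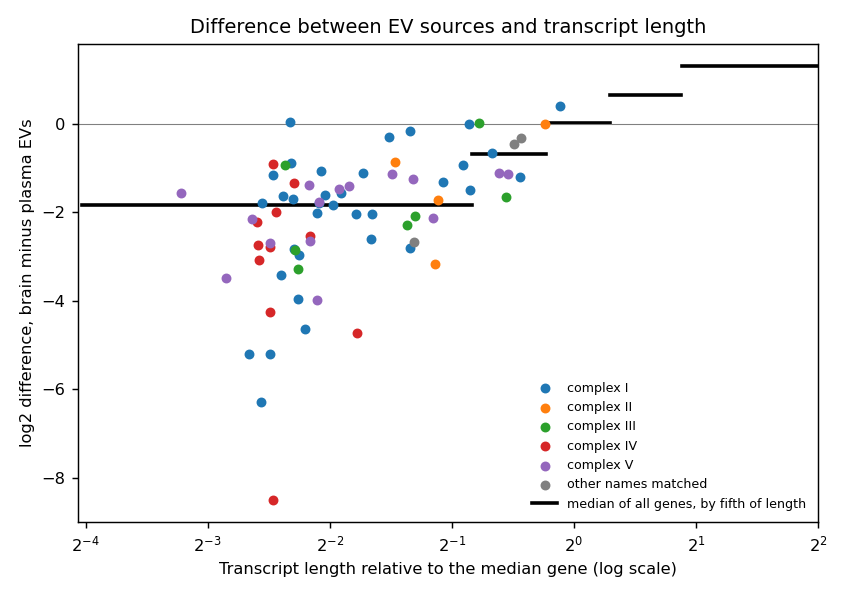
Log2 difference between brain and plasma EVs (vertical axis) against transcript length relative to the median gene (log scale) for the OXPHOS genes with a usable error, colored by complex. Black lines mark the median of all genes in each of 5 classes of length, from -1.85 in the shortest to 1.30 in the longest, and most OXPHOS genes scatter about the line of the shortest class.

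The median lay below 0 in each group. The median of the 79 genes, brain minus plasma, was -1.80 in healthy rats, -1.69, -1.37 and -1.53 in the control group at 4, 10, and 31 days, and -1.61, -3.34 and -0.80 in the hNSCs group. Of the 79 genes, between 63 (hNSCs at 31 days) and 78 (hNSCs at 10 days) had a fitted value below 0. The same values over all genes were not taken group by group. The hNSCs group at 10 days held brain libraries of 569136 and 1123445 annotated counts, with 58 and 50 of the OXPHOS genes at 0. The brain libraries from 31 days were the deepest. The part of depth in the spread between groups was not tested.

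Promoters of these genes were also searched for letters of known regulators. RefSeq promoter sequences of the build GRCr8 (250 bases before to 50 after the start) were matched to 71 of the 81 genes, by current symbol or synonym. Those without an entry included Atp5h, Atp5sl, Cox6a1, Cox6c, Ndufa10l1, Ndufa8, Ndufb9, Uqcr11 and Uqcrb. The ETS octamer CCGGAAGT, the letters of a site for GABPA (also called NRF-2), a known regulator of respiratory genes, was present on either strand in 7 of 71 promoters (9.86%), against 4.01% of 27457 promoters. The palindromic NRF1 consensus was present in 4 (5.63% against 0.932%), and the YY1 consensus on either strand in 8 (11.3% against 0.798%). The ERR letters TCAAGGTCA were in 2 (2.82% against 0.412%) and the GC box GGGGCGGGG in 6 (8.45% against 10.4%), each on either strand. A match describes letters and not a bound site. Windows of 30 bases are given with the ETS or NRF1 letters in capitals. They are from Ndufb7 (0.05) and Ndufs1 (0.39), which were not called between brain and plasma, and from Cox5b, called lower at -0.92. The other 4 are from genes with a larger difference (Uqcrq, Uqcrh, Atp5g2 and Ndufa11). The ETS letters occur in windows of genes called lower and of genes not called. The 4 genes with the NRF1 consensus, Atp5g2, Ndufa11, Atp5i and Atp5o, were all called lower in brain EVs, as were 79.7% of the OXPHOS genes tested. A link between these letters and the difference was not tested. The 7 were chosen after the values were seen, and the Ndufa11 window holds a second match that overlaps the first. They are written 5′ to 3′ on the strand of the gene, with GRCr8 coordinates.
Ndufb7, chr19:41477289-41477318, minus strand: ggctagatgacCCGGAAGTcactgaagggg
Ndufs1, chr9:72073787-72073816, minus strand: aggcctcggctACTTCCGGcggaactgcag
Cox5b, chr9:46417812-46417841, plus strand: tctgtctgttcCCGGAAGTgcatctgcttg
Uqcrq, chr10:38089982-38090011, minus strand: ttccgctcctcCCGGAAGTgacgtgcaaag
Uqcrh, chr5:134790948-134790977, minus strand: gagtatgccgcACTTCCGGccaggtcgccg
Atp5g2, chr7:135678255-135678284, minus strand: ggctctagtcGCGCATGCGCagagccttct
Ndufa11, chr9:1637507-1637536, plus strand: cctgcgctgtGCGCATGCGCatgcgcacag

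The next question was whether stroke changed these genes in brain EVs. The comparisons at the 3 times share the healthy libraries. No OXPHOS gene of the 74 tested was called by edgeR in the control group at any time against healthy rats. At 4 days, 0.861% of the 14515 genes tested were called by edgeR. DESeq2 called 2 OXPHOS genes, Ndufa11 and Ndufb4 (2.7%, against 5.83% of all genes), and 3 had an unadjusted p under 0.05 in edgeR, 1 higher and 2 lower, where 14.8% of all genes did. The lowest adjusted p was 0.158, for Ndufa11, an accessory subunit near the membrane arm of complex I. Ndufa11 had 29, 30 and 0 counts in the 3 healthy libraries and 0, 0 and 0 at 4 days. Ndufb4 had 0, 0 and 4 counts in healthy rats and 182, 77 and 0 at 4 days, so that the groups overlapped. Uqcr11 had 343, 617 and 332 TPM in healthy rats and 108, 185 and 137 TPM at 4 days, without overlap, at a log2 difference of -1.48 ± 0.71 (edgeR, adjusted p = 0.328). The median log2 difference was 0.23 over the OXPHOS genes and 0.05 over all genes.

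At 10 days, 0.572% of all genes were called against healthy rats and no OXPHOS gene (DESeq2 called Ndufb4, 1.35% against 4.22% of all genes), with 4 genes at an unadjusted p under 0.05 in edgeR, 2 higher and 2 lower, beside 12.7% of all genes. Ndufb4 had 14, 106 and 17 counts, all above the 0, 0 and 4 of healthy rats. Ndufv1 had 81.8, 80.2 and 114 TPM against 254, 192 and 190 TPM, without overlap, at a log2 difference of -1.05 ± 0.42 (edgeR, adjusted p = 0.283). Ndufa7, an accessory subunit of complex I, had 0 in all 3 libraries against 0, 16 and 24 counts. At 31 days, 0.00689% of all genes were called, and again no OXPHOS gene by edgeR or DESeq2, with 3 at an unadjusted p under 0.05, all higher, beside 5.3% of all genes that were higher and 7.14% either way. Atp5a1 had 569, 560 and 652 TPM against 511, 359 and 247 TPM (log2 difference 0.77 ± 0.32, edgeR adjusted p = 0.582). The medians at 10 and 31 days were 0.27 and 0.50 over the OXPHOS genes, where all genes had 0.00 and 0.24. At 10 days the median turned to -0.26 without control replicate 2 and to -0.17 on log2(TPM + 1).

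The count at 31 days depended on the unit. With limma on log2(FPKM + 1), 70 OXPHOS genes (94.6%) were called higher at 31 days than in healthy rats, where 57% of all genes, 8273, were called, and on log2(TPM + 1), which is rescaled over annotated genes, 1 was called, Uqcr10 (1.35%, against 0.2%). Annotated genes held 30.3% to 43.0% of counts in the control group at 31 days and 7.11% to 20.9% in healthy rats.

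Over time in the control group of brain, no OXPHOS gene was called between 31 and 4 days (edgeR, DESeq2 also 0), where 0.248% of all genes were. Of the 74, 7 had an unadjusted p under 0.05, all of them higher at 31 days, and 6.49% of all genes were higher at that level, or 9.5% either way. Atp5a1 had 259, 414 and 272 TPM at 4 days and 569, 560 and 652 TPM at 31 days, without overlap (log2 difference 0.87 ± 0.32, edgeR adjusted p = 0.289). Sdha had 120, 217 and 241 TPM and then 323, 345 and 367 TPM, also without overlap (0.82 ± 0.31, adjusted p = 0.291). Ndufa11 was at 0 in the 3 libraries at 4 days and had 155, 53 and 72 counts at 31 days. Uqcr10, a small subunit of complex III, was counted in brain only at 31 days, with 55, 28 and 42 counts in the control group and 44, 73 and 0 in the hNSCs group. Against the floor of 3 counts over a group, Uqcr10 was at least 4.26 log2 units higher at 31 than at 4 days, and Ndufa11 at least 5.42. The 6 brain libraries from 31 days were also the 6 deepest in annotated counts. With only these 2 groups in the fit, Ndufa11, Uqcr10 and Uqcr11 were called (4.11%, against 6.34% of all genes), and on log2(TPM + 1) Uqcr10 was (1.35%, against 1.16%).

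For transplantation in brain EVs, no OXPHOS gene was called at any time, and no gene at all (0% of 14515 by edgeR). At 4 days 6 OXPHOS genes had an unadjusted p under 0.05, 2 higher and 4 lower, beside 7.53% of all genes, and DESeq2 called Ndufa4 (1.35%, against 1.52% of all genes). Ndufa4 had 77, 53 and 11 counts in the control group and 0, 0 and 0 in the hNSCs group, at least 4.92 log2 units lower against the floor. Ndufc1, a small subunit of the complex I membrane arm, had 31, 0 and 23 counts and then 0, 0 and 0. Ndufa11 went the other way, with 0, 0 and 0 counts and then 0, 11 and 63. The medians were -0.13 over the OXPHOS genes and -0.11 over all genes.

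At 10 days the OXPHOS genes stood low in the hNSCs group without passing the adjusted test. Of the 74 genes, 20 had an unadjusted p under 0.05, all lower, where 10.8% of all genes were lower at that level and 13.4% differed either way, and 63 had fitted values below 0, beside 62.5% of all genes. The median log2 difference was -1.50 over the OXPHOS genes and -0.34 over all genes, and with the 12 genes that had a group at 0 set to their bounds it was -1.57. The median over the OXPHOS genes was -0.52 without control replicate 2, -2.12 without hNSCs replicate 1 and -2.57 on log2(TPM + 1). The lowest adjusted p was 0.260, for Sdhc. Sdhc had 41.5, 258 and 96.9 TPM in the control group and 33.4, 0 and 0 TPM in the hNSCs group. Sdhd had 42, 62 and 0 counts and then 1, 0 and 0, and Uqcrq 32, 124 and 17 counts and then 15, 0 and 0. Of the 81 genes, 17 had no count in any of the 3 hNSCs libraries, and 9 of these had counts in the control group, namely Ndufa1, Ndufa2, Ndufa4, Ndufa12, Ndufb4, Ndufc1, Atp5g2, Atp5s and Cox7a2. These 9 were 12.5% of the 72 OXPHOS genes with counts in the control group, and the share over all annotated genes was 12.7%. Sdha had 215, 186 and 206 TPM in the control group and 216, 184 and 361 TPM in the hNSCs group, at a log2 difference of 0.04 ± 0.31. Atp5b had 453, 486 and 413 TPM and then 265, 257 and 430 TPM, which overlapped (log2 difference -0.82 ± 0.31, edgeR adjusted p = 0.326).

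The hNSCs libraries at 10 days held 2955945, 1123445 and 569136 annotated counts and the control libraries 2317700, 2258483 and 1500439. Control replicate 2 stood apart, with a summed OXPHOS level of 16620 TPM against 7183 and 6781 TPM in its group. DESeq2 called 13 OXPHOS genes lower (17.6% of those tested, against 4.38% of all genes called), all among the 20. With limma on log2(TPM + 1), 3 were called, Sdhc, Uqcrq and Ndufa4 (4.05%, against 0.441%). Without hNSCs replicate 1 edgeR called 12 (16%, against 4.92%), of which 3 were shared with DESeq2. The neuron markers summed to 3419 to 6185 TPM in the hNSCs group and 945 to 5289 TPM in the control group at 10 days, which overlapped. Red cell markers summed to 5703 to 7624 TPM in the hNSCs group against 2010 to 4474 TPM, liver markers to 419 to 553 against 239 to 368 TPM, and regulators of mitochondrial biogenesis to 742 to 911 against 512 to 657 TPM, each without overlap. Skeletal muscle markers, at most 27.9 TPM against at least 36.8 TPM, did not overlap either. Hemoglobin as a share of annotated counts did overlap, at 0.122% to 0.147% in the hNSCs group and 0.0487% to 0.141% in the control group. The part of these in the OXPHOS values was not tested. The cytosolic ribosomal proteins, which took 0.267% to 0.521% of annotated counts in the hNSCs group, took 0.335% to 3.20% in the control group.

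At 31 days no OXPHOS gene had an unadjusted p under 0.05 in brain by edgeR, DESeq2 called none, and 0.0896% of all genes had such a p. Ndufa3, Uqcrc2 and Ndufa12 had the smallest p values, 0.399, 0.558 and 0.589 (edgeR, adjusted p = 1 for each). The medians were 0.07 over the OXPHOS genes and 0.00 over all genes. Atp5b had 588, 612 and 695 TPM in the control group and 570, 612 and 617 TPM in the hNSCs group. In the test of whether the effect of hNSCs differed between the 3 time points, no OXPHOS gene passed in brain (edgeR, lowest adjusted p = 0.749, 0% of all genes called), 9 had an unadjusted p under 0.05, led by Ndufa4, Ndufc1 and Uqcrq, beside 6.18% of all genes, and DESeq2 passed none. Without hNSCs replicate 1 at 10 days, 6 passed (8%, against 1.76% of all genes).

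Plasma EVs gave no OXPHOS gene called against healthy rats at 4, 10 or 31 days, of 78 tested. At 4 days 0.0679% of 14720 genes were called, no OXPHOS gene had an unadjusted p under 0.05 in edgeR, where 5.86% of all genes did, and DESeq2 called 1, Cox6a2 (1.28%, against 6.16% of all genes). The smallest unadjusted p values were those of Cox6a2, 0.0586, Ndufa4l2, 0.0946, and Ndufb11, 0.139. At 10 days, with 0% of genes called, 4 OXPHOS genes had an unadjusted p under 0.05, 1 higher and 3 lower, beside 5.6% of all genes. Uqcrq had 318, 323 and 209 TPM against 248, 135 and 271 TPM in healthy rats, which overlapped, and Ndufb6, an accessory subunit of complex I, 12.8, 13.7 and 13.4 TPM against 87.5, 28.5 and 53.8 TPM, without overlap (log2 difference -1.67 ± 0.67, edgeR adjusted p = 0.750). DESeq2 called Ndufa3, Uqcr10 and Ndufb6 there (3.85%, against 8.25% of all genes). At 31 days, also with 0% called, Uqcrq alone had such a p, beside 4.75% of all genes, with 483, 391 and 271 TPM against 248, 135 and 271 TPM in healthy rats, where the lowest and the highest library met, and Ndufa4l2 and Ndufa8 followed with p values of 0.091 and 0.0939, DESeq2 calling none.

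Between 10 and 4 days in the plasma control group, no OXPHOS gene was called by edgeR, where 0.387% of all genes were, and 8 had an unadjusted p under 0.05, 2 higher and 6 lower, beside 7.5% of all genes. Ndufb6 had 91.7, 120 and 87.6 TPM at 4 days and 12.8, 13.7 and 13.4 TPM at 10 days, the groups lying far apart (log2 difference -2.24 ± 0.68, edgeR adjusted p = 0.310), and both DESeq2 and limma on log2(TPM + 1) called it. Ndufa3, an accessory subunit of complex I, had 81, 109 and 308 counts and then 0, 0 and 0, at least 7.00 log2 units lower against the floor, and Cox6a2 had 0, 0 and 0 counts and then 81, 208 and 356, at least 8.13 log2 units higher. DESeq2 called 5 OXPHOS genes in all (6.41%, against 10.2% of all genes), and limma on log2(TPM + 1) called 3 (3.85%, against 0.754%). The summed level was 13579, 13929 and 12801 TPM at 4 days and 8785, 8064 and 8863 TPM at 10 days. Hemoglobin moved with it, from at most 3.45% of annotated counts at 4 days to at least 14.4% at 10 days. With hemoglobin genes left out of the TPM, the sums were 14872, 14801 and 13351 TPM at 4 days and 12074, 12678 and 13453 TPM at 10 days, and the groups overlapped. On the TMM scale the medians were -0.04 over the OXPHOS genes and -0.06 over all genes.

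For transplantation in plasma, no OXPHOS gene was called at any time by edgeR. At 4 days 0.00679% of all genes were called, and 5 OXPHOS genes had an unadjusted p under 0.05, 1 higher and 4 lower, beside 3.94% of all genes. Cox6a2, the 1 gene called by DESeq2 (1.28%, against 5.93% of all genes), had 0, 0 and 0 counts in the control group and 360, 0 and 167 in the hNSCs group. Cox7a2l had 272, 483 and 354 TPM and then 140, 184 and 261 TPM, without overlap (log2 difference -0.88 ± 0.36, edgeR adjusted p = 0.814). Uqcrfs1 had 230, 285 and 152 TPM and then 108, 188 and 52.5 TPM, with overlap. Without hNSCs replicate 3 edgeR called 1 OXPHOS gene, Ndufa4 (1.25%, against 0.262% of all genes). The summed level was 11628, 12267 and 10061 TPM in the hNSCs group, below the 12801 to 13929 TPM of the control group, and it stayed below without hemoglobin genes, at 12254, 12601 and 10406 TPM against 13351 to 14872 TPM. The OXPHOS genes had a median of -0.16 and all genes one of 0.00.

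At 10 days in plasma, with 0% of genes called, 3 OXPHOS genes had an unadjusted p under 0.05, 2 higher and 1 lower, beside 4.06% of all genes. Ndufa3 had 0, 0 and 0 counts in the control group and 60, 106 and 63 in the hNSCs group, and Uqcr10 had 0, 0 and 0 and then 0, 68 and 154. DESeq2 called both (2.56%, against 7.76% of all genes). Ndufb8 had 148, 102 and 147 TPM and then 74.4, 34.3 and 86.2 TPM, without overlap (log2 difference -0.97 ± 0.43, edgeR adjusted p = 0.834).

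At 31 days in plasma, with 0% of genes called, 3 OXPHOS genes had an unadjusted p under 0.05, all lower, beside 6.43% of all genes that were lower and 8.57% either way. Sdhd had 90.5, 78.2 and 48.3 TPM in the control group and 20.1, 24.3 and 9.06 TPM in the hNSCs group, without overlap (log2 difference -1.50 ± 0.49, edgeR adjusted p = 0.520). Ndufa6, an accessory subunit of complex I, had 256, 300.5 and 267 TPM and then 42.3, 67.9 and 127 TPM, without overlap (-1.22 ± 0.42, adjusted p = 0.522). DESeq2 called both (2.56%, against 11.3% of all genes). Ndufs5 had 335, 199 and 222 TPM and then 118, 69.7 and 90.5 TPM, without overlap. Without hNSCs replicate 1 edgeR called 1 OXPHOS gene, Ndufc2 (1.25%, against 0.147% of all genes). The summed level was 6646, 7131 and 7768 TPM in the hNSCs group and 12988, 12462 and 9141 TPM in the control group, while hemoglobin took 22.2% to 28.8% of annotated counts against 6.90% to 17.6%. Without hemoglobin genes the sums were 13275, 12203 and 12880 TPM against 15368, 16155 and 13658 TPM, still without overlap. On the TMM scale the medians were -0.09 over the OXPHOS genes and -0.10 over all genes. The test of a difference between time points passed no OXPHOS gene in plasma (edgeR, lowest adjusted p = 0.555, DESeq2 0, 0.00679% of all genes called), and 4 had an unadjusted p under 0.05, led by Ndufa10, Uqcrfs1 and Atp5j2, beside 8.5% of all genes.

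Isoforms of restricted use were rare in brain EVs, and Cox7a1, Cox8b and Ndufa4l2 were rare in plasma EVs too. In plasma, Cox6a2 and Cox6b2 had mean levels of 16.3 ± 22.7 and 19.0 ± 28.5 TPM (SD, n = 21), beside 18.1 TPM for Ndufs1. Cox6a1, the form of most tissues, had 298 TPM ± 176 in brain and 213 ± 67.0 in plasma (SD, n = 21). Cox6a2, the form of heart and skeletal muscle, was at 0 in 19 brain and 9 plasma libraries, but reached 558 counts in plasma. Cox6b2, known from testis, was at 0 in 19 brain and 11 plasma libraries and reached 1096 counts in 1 plasma library. Its fitted difference of -8.50 ± 1.89 rests on the counts of 2 brain libraries, and with brain groups at 0 set to the floor it was -4.58 or further below 0. Cox7a2 had 53.3 TPM in brain and 138 TPM in plasma on average, and its muscle form Cox7a1 had 0.41 and 0.0773 TPM. Cox8a had 191 and 221 TPM, and Cox8b, another muscle form, had counts in 1 brain and 2 plasma libraries. Ndufa4 had 28.1 and 45.1 TPM and its paralog Ndufa4l2 was at 0 in 18 brain and 17 plasma libraries. Ndufs6 had counts in 1 brain and 5 plasma libraries, with at most 1 count in brain. The skeletal muscle markers summed to at most 44.5 TPM in brain and 46.2 TPM in plasma, and the heart markers to at most 123 and 292 TPM. Their part in these values was not tested.

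Genes that work beside the respiratory chain were read from lists. Over all genes tested, 25.3% were called lower in brain EVs and 29% higher, with a median of 0.16, and several lists lay near these shares. Against plasma, 43 of 76 mitochondrial ribosome genes were called lower in brain EVs and none higher, with a median of -1.65. Of 38 assembly factors 9 were lower and 5 higher, with a median of -0.56. Of 16 genes of the citrate cycle and pyruvate dehydrogenase 5 were lower and 1 higher, and of 6 carriers and porins 5 were lower. Of 9 regulators of mitochondrial biogenesis 5 were higher in brain EVs and 2 lower, with a median of 1.03. Among the regulators, Ppargc1a, a coactivator of respiratory genes, was at 0 in 19 of 21 plasma libraries and had 25.3 TPM on average in brain. Tfam, which maintains mitochondrial DNA, had a fitted difference of -3.10 ± 0.58 on the TMM scale. It was at 0 in 6 brain libraries, so the fitted size depends on how the fit treats zeros. Per length its mean level was similar, at 29.9 ± 31.8 TPM in brain and 30.8 ± 14.1 TPM in plasma (SD, n = 21). Nrf1 had a log2 difference of -0.32 ± 0.26 (edgeR, adjusted p = 0.328). Of 16 glycolysis genes 6 were higher and 6 lower. Outside the symbol rule, Cox4i1 was lower in brain EVs by -2.32 ± 0.18, Cyc1, the cytochrome c1 of complex III, had a difference of 0.47 ± 0.38, Cycs, the cytochrome c that carries electrons from complex III to IV, one of -0.41 ± 0.30, and Cox4i2 was at 0 in 13 brain and 17 plasma libraries. Across the comparisons of conditions, none of the genes of the mitochondrial ribosome, assembly factors, citrate cycle, carriers or regulators was called by edgeR, and 1 glycolysis gene was, lower in the control group of brain at 4 days than in healthy rats. Of the cytosolic ribosomal proteins 2 were called higher than in healthy rats in the control group of brain at 4 days and 2 at 10 days.

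Markers of other cell types were read in the same comparison of brain with plasma EVs, where 25.3% of all genes were called lower and 29% higher. All 5 astrocyte and all 5 oligodendrocyte markers were called higher in brain EVs. All 6 red cell, 5 platelet and 4 liver markers were lower, as were 4 of 5 T cell and 3 of 5 neutrophil markers. Of 5 microglia markers 2 were higher and 2 lower, and of 4 endothelial markers 1 was higher and 3 lower. Of 5 skeletal muscle markers 1 was higher and 2 lower, and 3 of 4 heart and 3 of 6 EV markers were lower. Their part in the differences of the OXPHOS genes was not tested.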

How the data were processed

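Total RNA of EVs was sequenced in 42 libraries, brain and plasma from each of 21 rats. Per the labels and methods, the reads were trimmed by the authors and mapped with Bowtie2 onto Rnor_6.0, and StringTie gave FPKM, added up per gene. The deposited counts are whole reads per gene. The tool that counted them and its strand setting are not given in the sources used here, so a gene and an overlapping or antisense gene cannot be told apart. The deposited FPKM are normalized by the authors for length and depth, and were rescaled here to TPM over annotated genes.

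Counts were tested with edgeR 4.0.16 (R 4.3.3; TMM, filterByExpr, quasi-likelihood test), with 1 fit of 7 groups per tissue and 1 joint fit for brain against plasma. Rows of 7855 unannotated genes stayed out. Calls needed a Benjamini-Hochberg adjusted p under 0.05 over all genes tested and a change over 1.5-fold. Where a group had no counts, a bound was set with 3 counts over the group. Replicates were separate rats.

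The alternatives were DESeq2 1.42.0, limma 3.58.1 on log2(FPKM + 1), log2(FPKM + 0.1) and, added after the data were seen, log2(TPM + 1), no filter, library totals without TMM, unannotated genes kept, no fold limit, hemoglobin genes left out, a replicate block, only the 2 groups compared, and each library left out. In the joint fit, leaving out a rat kept the genes and dispersions of the full fit. On simulated data with known changes, edgeR recovered 48.5% of 66 genes changed 16-fold in a simulation of brain control 4 days against healthy, 10.4% of 67 changed 4-fold and 0 of 67 changed 2-fold. The same numbers for plasma were 25.8%, 1.49% and 0%, and for brain against plasma 75.8%, 32.8% and 19.4%. Unchanged genes called numbered 3, 1 and 15. The changed genes were drawn at random from all genes tested, with their own levels and spread. In plasma the median coefficient of variation was 0.493 over the OXPHOS genes and 1.41 over all genes. The recovered shares therefore do not measure recovery of OXPHOS genes.

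Named were the genes called in a comparison (up to 30 by adjusted p), the 3 smallest p values where none was called, the 5 highest levels per source, 10 set subunits, 5 isoform pairs and 7 related genes. Other genes were named after their values were seen. The symbol rule for the members uses no values, but it, the pathway and marker lists and the tests were set with earlier results of these data known. The values of 1 gene are counted in the totals and are not reported here.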

Additional observations from a re-analysis of the deposited data

How the results depend on the processing

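No OXPHOS gene was called in any comparison of conditions by edgeR as reported, and DESeq2 called 2 in brain control 4 days against healthy, 1 in control 10 days against healthy, 1 in hNSCs against control at 4 days and 13 at 10 days. In plasma DESeq2 called 1 in control 4 days against healthy, 3 at 10 days, 1, 2 and 2 in hNSCs against control at 4, 10 and 31 days, and 5 in control 10 against 4 days. On log2(FPKM + 1) and log2(FPKM + 0.1) limma called 70 and 63 in brain control 31 days against healthy, 37 and 14 in control 31 against 4 days, and 1 and 1 in plasma control 10 against 4 days. On log2(TPM + 1) it called 1, 1 and 3 in these, and 3 in brain hNSCs against control at 10 days. With only the 2 groups compared, brain control 31 against 4 days gave 3. Shares of all genes called stood at 5.83%, 4.22%, 1.52% and 4.38% for the 4 DESeq2 counts in brain, where the OXPHOS genes had 2.7%, 1.35%, 1.35% and 17.6%. They stood at 6.16%, 8.25%, 5.93%, 7.76%, 11.3% and 10.2% for the 6 in plasma, where the OXPHOS genes had 1.28% to 6.41%. The 2 FPKM scales called 57% and 80.9% of all genes in brain control 31 days against healthy, 28.1% and 18.1% in control 31 against 4 days, and 0.435% in plasma. The causes were not tested.

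Leaving out 1 library gave 0 to 12 calls in brain hNSCs against control at 10 days and 0 to 6 in the test between time points, both highest without hNSCs replicate 1 at 10 days. It gave 0 to 1 in plasma hNSCs against control at 4 days and at 31 days. For brain against plasma, each rat was left out with its brain and plasma library, which gave 60 to 65 calls (75.9% to 82.3%, against 50.5% to 54% of all genes). Those fits kept the genes and dispersions of the full fit, so they could move less. The median log2 difference there ran from -2.58 to -1.70. The plasma median of hNSCs against control at 31 days ran from -0.33 to -0.0207, the lowest without hNSCs replicate 3. The brain median of hNSCs against control at 10 days ran from -2.12 to -0.52, and that of control 10 days against healthy from -0.26 to 0.60, which crosses 0. So did those of brain hNSCs against control at 4 days (-0.58 to 0.04) and 31 days (-0.08 to 0.19), and in plasma those of control against healthy at 4 days (-0.03 to 0.07) and 10 days (-0.21 to 0.07), hNSCs against control at 10 days (-0.04 to 0.22) and control 10 against 4 days (-0.19 to 0.07).

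The median of the OXPHOS genes in brain control 31 days against healthy was 2.50 on log2(FPKM + 0.1). In plasma control against healthy it was 0.26 on log2(FPKM + 0.1) and 0.32 on log2(TPM + 1) at 4 days, -0.23, -0.26 and -0.38 on log2(FPKM + 1), log2(FPKM + 0.1) and log2(TPM + 1) at 10 days, and 0.52 and 0.57 on the 2 FPKM scales at 31 days. For plasma hNSCs against control it was -0.39 on log2(FPKM + 0.1) at 4 days. At 31 days it was -0.45 with library totals and -0.41, -0.45 and -0.71 on the 3 log scales. For plasma control 10 against 4 days it was -0.43 with library totals and -0.48, -0.53 and -0.76 on them. For brain against plasma it was -3.73 on log2(FPKM + 0.1) and -0.65 on log2(TPM + 1).

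Of the 63 genes called lower in brain EVs, 27 stayed called with the same sign in every setting and with every rat left out. On log2(TPM + 1) 15 turned higher in brain EVs, and none did in another setting. The values of those reported here were 0.64 for Atp5a1, 0.67 for Atp5b, 0.24 for Atp5c1, 0.35 for Atp5d, 0.82 for Cox5b, 0.0211 for Ndufa10, 0.84 for Ndufa10l1, 0.19 for Ndufa8, 0.0499 for Ndufa9, 0.32 for Ndufb9, 0.73 for Ndufs5, 0.53 for Sdhb, 0.49 for Uqcr11 and 0.12 for Uqcrc2. A count of calls was taken as moved when it changed over 1.5-fold, or to or from 0. A median was taken as moved when it shifted by at least the SD of library medians within groups. That SD was 1.39 log2 units in brain, 0.22 in plasma and 0.99 for brain against plasma. By these limits counts moved in 21 and medians in 19 of the settings other than leaving out a library, and 161 and 130 stayed. The limit in brain is wide, and the change of sign at 10 days against healthy rats, from 0.27 to -0.17, counted as staying.

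With the replicate number as a block, no OXPHOS gene was called in any comparison within a source. With the rat as a block 60 were called lower in brain EVs (75.9%, against 48.3% of all genes called either way). The numbers share no stated batch. Same-numbered libraries of different groups had correlations of -0.18 to 0.39 in brain and -0.46 to 0.33 in plasma. Differently numbered ones had correlations of -0.30 to 0.28 in brain and -0.37 to 0.39 in plasma. Brain and plasma of 1 rat had correlations of -0.03 to 0.04. The medians were -0.014 (same number) and 0.0097 (different number) in brain, and -0.013 and 0.0054 in plasma. For brain and plasma of 1 rat the median was 0.0091. Medians were thus similarly small within a source and between sources, so these correlations cannot be read as the likeness of whole expression profiles. They check the numbering only, and are a different measure from the rho of 0.79 between mean levels in brain and plasma.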
